A study of Mus musculus with 6 samples.

Results

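Semaphorins and the plexin and neuropilin genes that encode their receptors were followed through the uteri of young mice of 2 Arid1a genotypes. Members were selected by gene symbol from the platform annotation, counting only probe sets with exactly 1 symbol. This gave 74 of 41420 probe sets and 30 of 16813 genes, of which 20 encode ligands and 10 receptors. Each gene stands for its brightest probe set, the one of highest mean over all arrays, and for Sema3e all 4 probe sets are given. Plxnb2, the remaining plexin of the family's 31 genes, was not analysed here.

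Whole uteri of intact females 2 weeks old were compared, 3 of the genotype Arid1a f/f and 3 of Arid1a d/d. ARID1A, the protein, contacts DNA within the BAF chromatin remodelling complex, and by convention f marks a floxed allele and d a deleted one. The labels name no treatment, no Cre driver and no deleted exon, and the cells in which the gene was deleted are not given in the sources used here. They also do not state that arrays came from separate animals, so p-values reflect no more than the spread of these 6 samples, and that spread may be technical.

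Semaphorins are guidance cues, first known from the growth cones of axons and also acting on blood vessels, epithelia and immune cells. Class 3 members are secreted, classes 4 to 6 span the membrane and class 7 is tethered to it by a lipid anchor. Plexins are their signalling receptors, whose cytoplasmic part acts on small GTPases. Most secreted members bind a plexin through a neuropilin, which also serves as a co-receptor for vascular endothelial growth factor. Sema3e is the known exception and binds Plxnd1 directly.

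All values are log2 intensities, and a difference is the d/d mean less the f/f mean on that scale. The median of all values was 2.69, and a probe set whose mean lay below it in both genotypes is called dim. Array medians ranged from 6.34 to 6.59 in linear intensity and arrays correlated at 0.987 to 0.995 over all probe sets. Arid1a stood at 7.54, 7.58 and 7.71 in f/f and at 6.98, 7.06 and 7.04 in d/d, a difference of -0.58 ± 0.09 (SE; limma adjusted p = 0.0260, and at most 0.111 with 1 array left out). Since the deleted exon is not named, whether this probe set reads the deleted part is unknown. Leaving out d/d 1 raised the count of all genes past the threshold from 192 to 821. Uterine genes were well measured, with 8 of 8 listed genes, among them Hoxa10, Hoxa11, Esr1 and Pgr, present and none below 2.69 in all arrays. Of these 8 genes 3 were higher and 5 lower in d/d, and 0 had an adjusted p under 0.05, against 1.14% of all genes. The smallest p were those of Wnt7a, with a difference of 1.39, and Hoxa11, at -0.42 (limma adjusted p of 0.102 and 0.132).

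Sema3e was the member that rose. The other 29 members, 19 ligands and 10 receptors, did not pass an adjusted p of 0.05 in limma, so that 1 of 30 members was called against 1.14% of all genes. In the direction of higher levels this was 1 member against 0.63% of genes, and in that of lower levels 0 members against 0.512%. The rise of 2.94-fold was the 15th largest among 16813 genes. The next smallest p was that of Sema3a, at an adjusted p of 0.0529, followed by Sema6d at 0.0936.

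The region around the start of Sema3e and of Sema3a is shown because these ligands had the largest positive differences and lie near each other on chromosome 5. Each window runs 5′ to 3′ from 250 bases before to 50 after the start in RefSeq (GRCm38.p6), at chr5:14025026-14025325 for Sema3e and chr5:13396534-13396833 for Sema3a, both on the + strand. Capitals mark matches, on either strand, to the GC box GGGCGG and the E-box CACGTG.
Sema3e: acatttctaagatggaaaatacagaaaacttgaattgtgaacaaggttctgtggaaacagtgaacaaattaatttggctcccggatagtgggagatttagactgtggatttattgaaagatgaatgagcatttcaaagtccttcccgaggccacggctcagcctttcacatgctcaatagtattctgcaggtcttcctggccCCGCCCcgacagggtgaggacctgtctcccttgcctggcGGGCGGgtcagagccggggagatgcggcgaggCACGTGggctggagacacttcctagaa
Sema3a: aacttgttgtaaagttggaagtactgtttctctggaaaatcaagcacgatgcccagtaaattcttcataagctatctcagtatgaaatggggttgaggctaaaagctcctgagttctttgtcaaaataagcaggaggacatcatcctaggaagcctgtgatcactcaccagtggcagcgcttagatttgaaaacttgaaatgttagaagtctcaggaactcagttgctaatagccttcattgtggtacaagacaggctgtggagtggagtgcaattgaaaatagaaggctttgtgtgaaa
The Sema3e window held 2 GC boxes and 1 E-box, and the Sema3a window held none of either. Over all 32851 promoters of the same length, 35.7% held a GC box and 7.15% the E-box. Neither window held TATAAA, found in 13.6% of promoters, or the AP-1 sequence TGANTCA, found in 7.81%. The GC content was 50.7% for Sema3e and 41.3% for Sema3a, beside a median of 52.7%. CG pairs numbered 11 and 2, beside a median of 7. Windows were found for 25 of the 30 members. The arrays measured transcripts only, so these matches describe the letters of the window.

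Sema3e, a secreted ligand known for repelling growing vessels and axons through Plxnd1, was higher on every d/d array by each of its 4 probe sets. Its brightest probe set, 1419717_at, measured 4.41, 4.86 and 4.86 on the f/f arrays 1, 2 and 3, against 6.73, 6.15 and 5.92 on the d/d arrays in that order. The lowest d/d array lay above the highest f/f array, and d/d 1 was the highest of all. The means were 4.71 ± 0.26 and 6.27 ± 0.41 (SD, n = 3), and the difference was 1.56 ± 0.22 (SE; 95% interval 1.05 to 2.06; limma adjusted p = 0.0232 over genes and 0.0248 over probe sets).

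Probe set 1427673_a_at measured 3.21, 3.24 and 3.38 in f/f, against 4.86, 4.38 and 4.16 in d/d, a 2.28-fold rise (limma adjusted p = 0.0276 over probe sets). Probe set 1442226_at measured 2.35, 3.15 and 3.12 in f/f, against 4.97, 4.66 and 4.59 in d/d, a 3.65-fold rise (limma adjusted p = 0.0121). Its level in f/f 1 lay below 2.69, where background limits a fold. Probe set 1425906_a_at, the dimmest, measured 2.35, 2.20 and 2.41 in f/f, against 2.84, 2.77 and 2.56 in d/d. Its difference was 0.40 ± 0.11 (SE; limma adjusted p = 0.199) and it did not pass. Of the 4 probe sets 3 were called higher, against 0.524% of all probe sets called. In all 4 the genotypes did not overlap, against 14.1% of all probe sets. Sema3e was chosen with earlier results of these data known, so these counts are descriptive and add no support. The 4 probe sets read the same RNA samples and are not replicates. In each of them d/d 1 was the highest array.

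**Figure D1:**
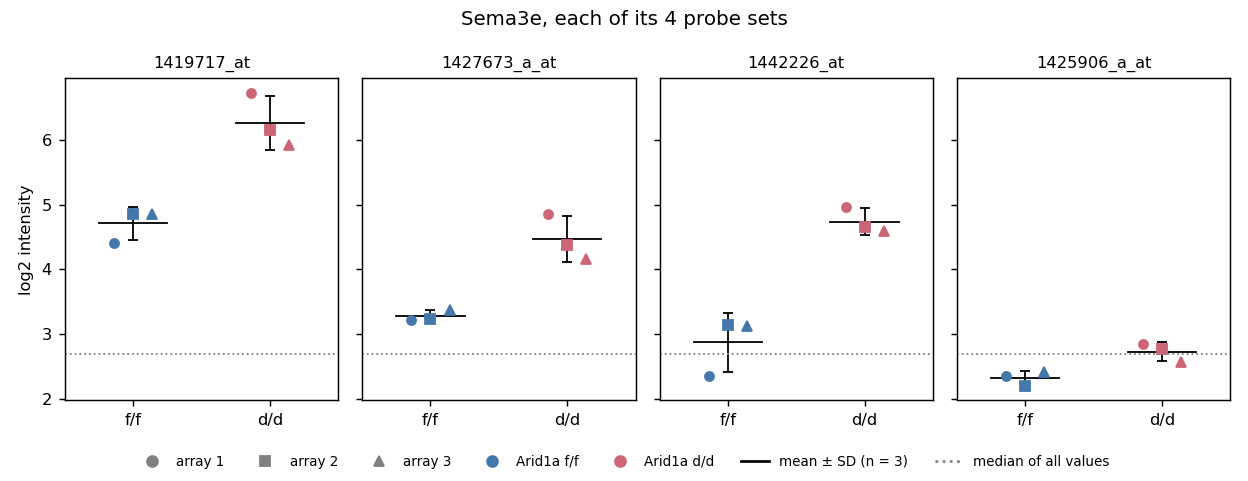
Log2 intensity of each Sema3e probe set on every array, with the genotype mean and SD of 3 arrays and a dotted line at the median of all values, 2.69. In each panel the 3 d/d arrays lie above the 3 f/f arrays, and only the last panel, 1425906_a_at, lies close to the dotted line throughout.

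The Sema3e difference was 1.33 to 1.73 with 1 array left out, 1.18 without both arrays numbered 1 and 1.25 by the mean of its probe sets, and its call depended on the arrays used. The adjusted p by limma rose to 0.0704, 0.1005 or 0.0896 on removing f/f 1, 2 or 3. On removing d/d 2 or 3 it was 0.0853 or 0.0522, and it was 0.00455 once d/d 1, the array with the highest Sema3e, was removed. Markers of other cell types were read on the same arrays. Of 9 measured epithelial markers 8 were higher, and 6 had an unadjusted p under 0.05 in limma, against 12.2% of all genes. The 1 that passed, against 1.14% of all genes, was Cdh1, the epithelial cadherin. Its difference was 1.00 ± 0.15 (SE, limma adjusted p = 0.0314). The summed intensity of the epithelial markers was 2690 to 3321 in f/f, against 4088 to 4332 in d/d, and none lay below 2.69 on all arrays. Of 8 neuronal and Schwann cell markers 5 were higher and 3 lower, and 0 passed. At an unadjusted p under 0.05 stood 1, Elavl3, near 2.69 at means of 2.57 and 2.78, against 12.2% of all genes. Gap43 had the largest difference, 0.81, with overlapping groups (limma adjusted p = 0.467). The summed intensity of the 8 markers was 67.4 to 89.2 in f/f, against 76.8 to 108 in d/d, with 2 of 8 below 2.69 on all arrays. The part of these cells in the Sema3e difference was not tested. In whole uteri, more cells of a type and more RNA per cell cannot be told apart.

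Ligands were split evenly by sign, and most receptors had negative differences, but the genotypes overlapped in the receptors' mean level. With each gene centred on its mean over the arrays, receptors averaged 0.07 on d/d 1 and -0.05 on f/f 2. Of the 20 ligands 10 were higher and 10 lower, with a median difference of 0.01, and of the 10 receptors 2 were higher and 8 lower, with a median of -0.10. Over all genes the median was -0.01 and 53.4% were lower. Genotypes did not overlap for 5 of 20 ligands and 3 of 10 receptors, against 16.5% of all genes. The 4 members wholly higher in d/d (against 7.1% of genes) were Sema3a, Sema3e, Sema4b and Plxna2. The 4 wholly lower (against 9.42% of genes) were Sema6c, Sema6d, Plxnc1 and Plxnd1. Of these, Sema6c counts only by a negligible gap, at 5.0022 on d/d 1 and 5.0025 on f/f 1. At an unadjusted p under 0.05 stood 6 ligands and 3 receptors, against 12.2% of all genes. Of the members 29 of 30 had a mean above 2.69, and among the 10979 genes above it 16.2% had an unadjusted p under 0.05 and 19.6% had groups without overlap. The median size of the difference, whatever its sign, was 0.24 over members, 0.10 over all genes and 0.12 over genes above 2.69.

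**Figure D2:**
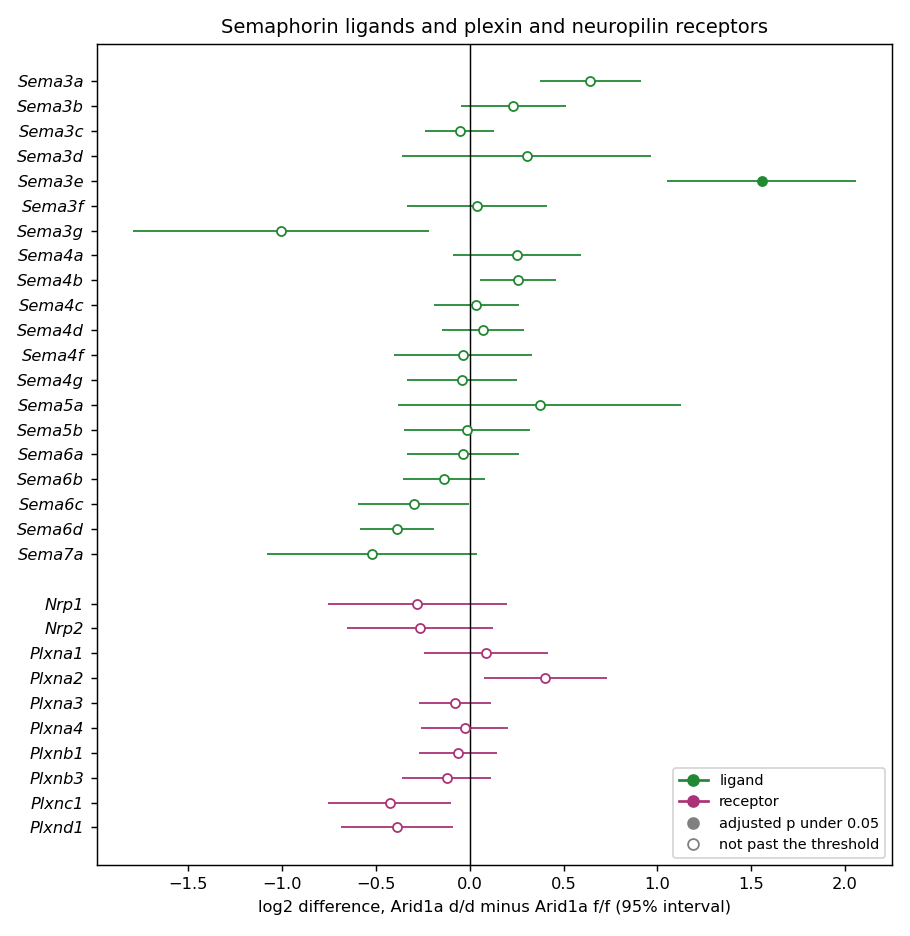
Log2 difference (d/d minus f/f, horizontal axis) of each ligand and receptor by its brightest probe set, with its 95% interval from limma. Filled points passed an adjusted p of 0.05. Sema3e at 1.56 is the only filled point, Sema3g at -1.01 lies farthest on the other side, and 8 of 10 receptors lie left of 0.

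Among the other secreted ligands, Sema3a, a repellent of axons that acts through Nrp1 and A-type plexins, lay closest to the threshold. It measured 5.85, 5.91 and 6.09 in f/f, against 6.41, 6.63 and 6.74 in d/d. The genotypes did not overlap, and the difference was 0.64 ± 0.12 (SE; 95% interval 0.37 to 0.91; limma adjusted p = 0.0529). Its dimmer probe sets, 1449865_at and 1420417_at, had differences of 0.62 and 0.78 and did not pass (limma adjusted p of 0.440 and 0.177 over probe sets). In 1449865_at the genotypes overlapped, and in 1420417_at the f/f mean of 2.51 lay below 2.69. For the brightest probe set the limma adjusted p was 0.0117 with d/d 1 left out. Over the fits with 1 array left out it ran up to 0.221.

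Sema3g, a ligand made by arterial endothelium that binds Nrp2, had the largest negative difference of the members. It measured 5.76, 5.10 and 5.32 in f/f, against 5.21, 3.93 and 4.02 in d/d. Array d/d 1 lay inside the f/f range while d/d 2 and d/d 3 lay more than 1 unit below it. The difference was -1.01 ± 0.34 (SE; 95% interval -1.80 to -0.22) and did not pass (limma adjusted p = 0.272). Without d/d 1 it was -1.42 with an adjusted p of 0.00562.

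Sema3c, a ligand known from the outflow tract of the heart, was level. It measured 8.95, 8.92 and 8.98 in f/f, against 8.87, 8.96 and 8.86 in d/d, and the groups overlapped. The 95% interval of its difference was -0.24 to 0.13. Sema3b, Sema3d and Sema3f had differences of 0.23, 0.30 and 0.04, with adjusted p of 0.520, 0.770 and 0.959 in limma. Sema3d spread widely within each genotype, from 2.94 to 3.71 in f/f and from 3.27 to 4.27 in d/d. Sema3f rests on a probe set with the suffix _x_at, which can cross-hybridise, and its other probe sets gave -0.30 and -0.11.

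Plxnd1, the direct receptor of Sema3e, was lower on each d/d array. It measured 7.73, 7.34 and 7.53 in f/f, against 7.28, 6.97 and 7.19 in d/d. The genotypes did not overlap, but the gap between the closest arrays was small. The difference was -0.39 ± 0.13 (SE; 95% interval -0.69 to -0.09) and did not pass (limma adjusted p = 0.268). The ligand and its receptor thus lay on opposite sides of 0, with Sema3e alone called.

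Neuropilins, the co-receptors of the secreted class, had small negative differences. Nrp1 measured 8.46, 8.01 and 8.15 in f/f, against 8.38, 7.75 and 7.65 in d/d, a difference of -0.28 ± 0.21 (SE; limma adjusted p = 0.689). Nrp2 measured 5.95, 5.90 and 6.01 in f/f, against 6.01, 5.31 and 5.75 in d/d, a difference of -0.26 ± 0.17 (SE; limma adjusted p = 0.623). In both genes d/d 1 reached the level of the f/f arrays, as in Sema3g, and d/d 2 and d/d 3 lay below it. The 3 Nrp1 probe sets ran from -0.32 to -0.22, and those of Nrp2 from -0.26 to 0.03, the last from a dim one.

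Endothelial markers were read beside Sema3g, Plxnd1 and the neuropilins, all of which vessels express. All 7 measured markers were lower in d/d and 0 passed, with 6 at an unadjusted p under 0.05, against 12.2% of all genes. Their summed intensity was 985 to 1028 over the f/f arrays, against 790 on d/d 1, 559 on d/d 2 and 627 on d/d 3. Array d/d 1 was the d/d array nearest to f/f, and this was also so for the stromal, smooth muscle and fat cell lists. None of the endothelial markers lay below 2.69 on all arrays. Emcn, a sialomucin of capillaries and veins, had a difference of -0.67 and Esam, an adhesion molecule of endothelium, -0.71, each with a limma adjusted p of 0.0603. Their part in the receptor values was not tested.

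A-type plexins pair with neuropilins or bind class 6 ligands. Plxna2 measured 5.13, 4.72 and 5.04 in f/f, against 5.55, 5.18 and 5.37 in d/d, without overlap. The difference was 0.40 ± 0.14 (SE; 95% interval 0.07 to 0.73; limma adjusted p = 0.295), and it was the receptor with the largest positive value. Of its 4 probe sets 3 gave 0.34 to 0.57 without overlap, and the fourth gave -0.003. Plxna1, Plxna3 and Plxna4 had differences of 0.09, -0.08 and -0.03, and the interval of each lay inside a 1.5-fold change in either direction.

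**Figure D3:**
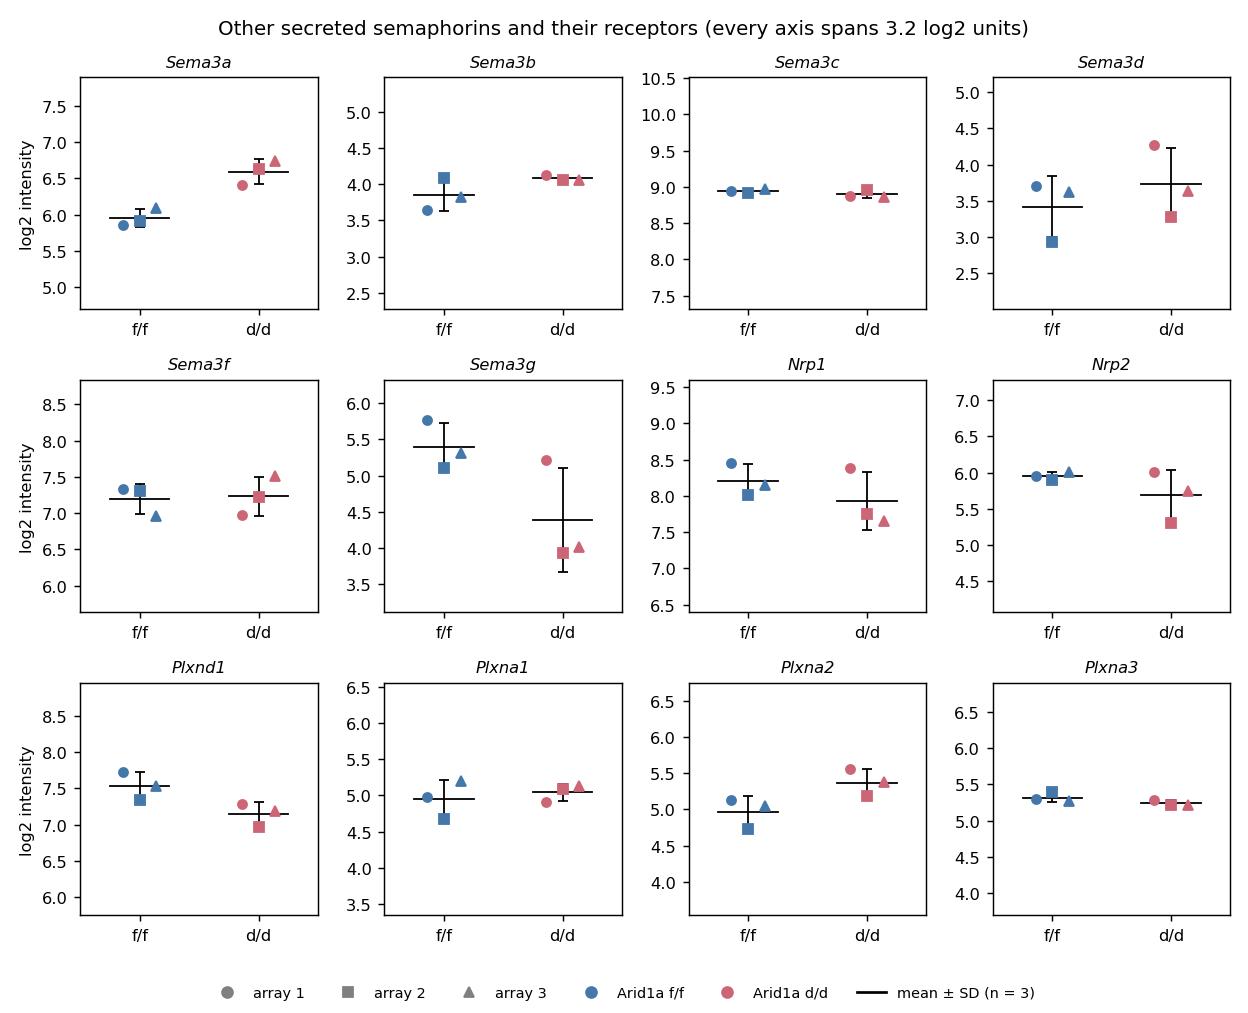
Log2 intensity on every array (vertical axis) by genotype for the secreted semaphorins other than Sema3e and for 6 of their receptors, with the mean and SD of 3 arrays. Sema3a, Plxnd1 and Plxna2 separate by genotype, Sema3c is level, and in Sema3g, Nrp1 and Nrp2 the circle of d/d 1 sits at the height of the f/f arrays.

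None of the membrane-spanning ligands passed. In class 4, Sema4b measured 5.69, 5.61 and 5.57 in f/f, against 5.98, 5.83 and 5.84 in d/d, without overlap, a difference of 0.26 ± 0.09 (SE; limma adjusted p = 0.274). Sema4a, a ligand known from T cell priming, had a difference of 0.25, and d/d 3 lay at the lowest f/f array. Sema4d, a ligand of Plxnb1, and Sema4c, a ligand of B-type plexins, had differences of 0.07 and 0.03. Their 95% intervals were -0.15 to 0.29 and -0.19 to 0.26. Sema4f and Sema4g had means near 3.1, not far above 2.69, and differences of -0.03 and -0.04.

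Class 5 ligands carry thrombospondin repeats. Sema5a by its brightest probe set measured 8.09, 7.0 and 7.37 in f/f, against 8.35, 7.91 and 7.32 in d/d, a difference of 0.37 ± 0.32 (SE; limma adjusted p = 0.747). The spread within each genotype exceeded the difference, with the arrays numbered 1 highest in each. A second Sema5a probe set with means of 6.82 and 6.72 gave -0.11, so the bright probe sets differ in sign. Sema5b, at means of 2.91 and 2.89, had a difference of -0.01.

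By their brightest probe sets the 4 class 6 ligands were lower, and none passed. Sema6d, a ligand of Plxna1 known from heart development, measured 6.95, 6.80 and 6.80 in f/f, against 6.48, 6.43 and 6.46 in d/d. The genotypes were well apart for their spread, at 6.85 ± 0.09 and 6.46 ± 0.03 (SD, n = 3). The difference was -0.39 ± 0.08 (SE; 95% interval -0.58 to -0.19; limma adjusted p = 0.0936). Its 3 other probe sets were dim and gave -0.10, 0.01 and 0.01. Sema6c measured 5.0, 5.21 and 5.33 in f/f, against 5.0, 4.67 and 4.97 in d/d, with f/f 1 and d/d 1 equal at this rounding. Its difference was -0.30 ± 0.13 (SE; limma adjusted p = 0.403). Its other probe sets gave 0.12 and, from a dim one, -0.03, and the mean of its probe sets -0.07. Sema6a had a difference of -0.03, which turned sign in 4 of 17 alternatives, and Sema6b, the 1 member that was dim by its brightest probe set, -0.14.

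Sema7a, the lipid-anchored member, signals through Plxnc1 and through an integrin that holds Itga1. Sema7a measured 6.24, 5.63 and 5.79 in f/f, against 5.87, 5.02 and 5.19 in d/d, a difference of -0.52 ± 0.24 (SE; limma adjusted p = 0.454), and d/d 1 lay inside the f/f range. Without d/d 1 the difference was -0.77 with an adjusted p of 0.0469. Its second probe set was dim and gave 0.05. Plxnc1 measured 3.03, 2.85 and 3.24 in f/f, against 2.82, 2.62 and 2.41 in d/d, without overlap and close to 2.69. Its difference was -0.43 ± 0.14 (SE; limma adjusted p = 0.263). The 5 remaining Plxnc1 probe sets were dim and ran from -0.23 to 0.14. Itga1 had a difference of -0.49 ± 0.10 (SE; limma adjusted p = 0.0749). Itgb1, the other chain of that integrin, had a difference of -0.13 (limma adjusted p = 0.643).

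The B-type plexins measured, Plxnb1 and Plxnb3, differed little. Plxnb1 measured 5.31, 5.41 and 5.18 in f/f, against 5.24, 5.25 and 5.22 in d/d, a difference of -0.06 with a 95% interval of -0.27 to 0.15. Plxnb3 had a difference of -0.12 with an interval of -0.36 to 0.11. The intervals of both lay inside a 1.5-fold change. This held for 17 of the 30 members, against 83.3% of all genes and 76.6% of those above 2.69. The intervals of the other 13 members reached past that size.

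**Figure D4:**
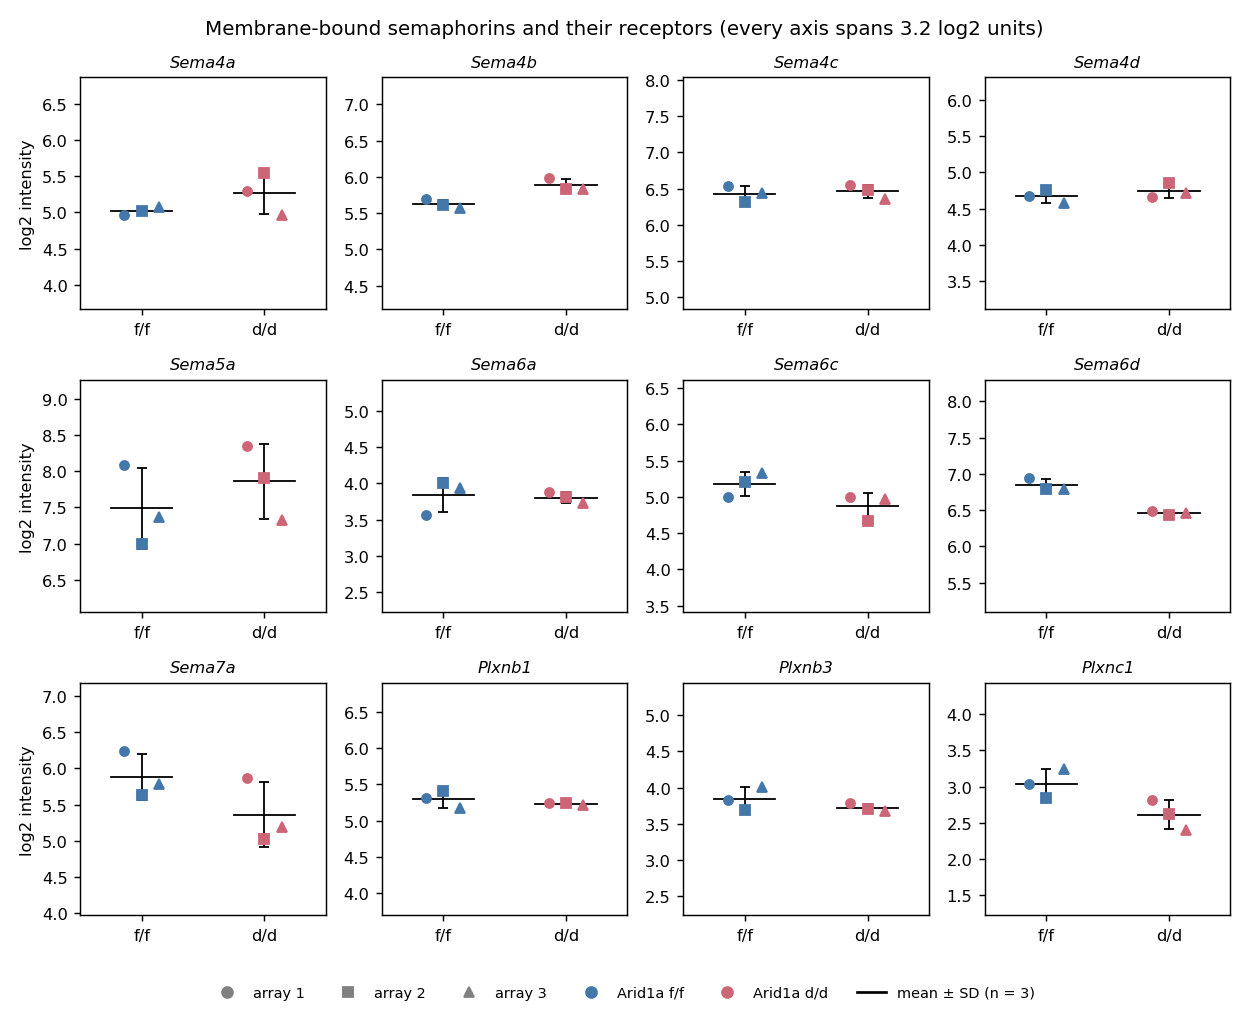
Log2 intensity on every array (vertical axis) by genotype for 9 membrane-bound semaphorins and 3 receptors, with the mean and SD of 3 arrays. Sema6d is tight within each genotype and lower in d/d, Sema5a spreads widely in both, and Sema4c, Sema4d and Plxnb1 are level.

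Sema3e lies in a stretch of chromosome 5 that also holds Sema3d, Sema3a and Sema3c, by the gene order of RefSeq's GRCm38.p6. From Sema3d to Sema3c the stretch has 22 protein-coding genes, of which 9 were measured. Between Sema3a and Sema3e lie 3 genes, of which Speer3, a spermatogenesis-associated gene, was measured and dim at a difference of 0.14. On the other side of Sema3e, Pclo, a presynaptic scaffold gene, measured 1.74, 1.53 and 1.74 in f/f, against 1.96, 1.89 and 2.07 in d/d. These groups did not overlap, but all 6 values lay below 2.69, and the difference of 0.31 did not pass (limma adjusted p = 0.248). Cacna2d1, a calcium channel subunit, and Hgf, the ligand of Met, followed at -0.49 and 0.13. Of the 10 measured genes on each side of Sema3e, 0 passed by limma. Those at an unadjusted p under 0.05, against 12.2% of all genes, were Sema3a, Pclo, Cacna2d1 and Cd36, a fatty acid receptor at -1.06. The 4 semaphorins of the stretch had differences of 0.30, 0.64, 1.56 and -0.05 in chromosomal order.

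**Figure D5:**
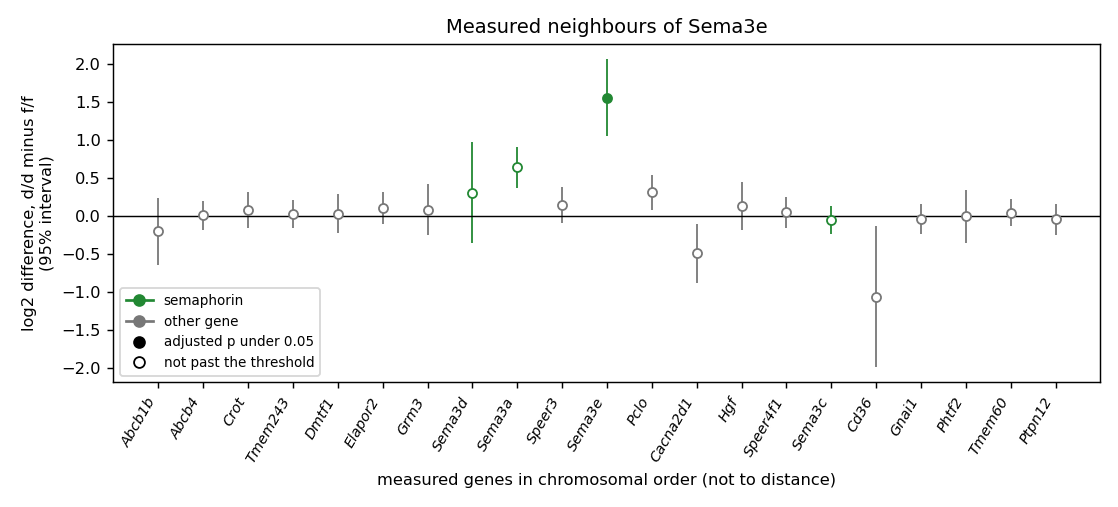
Log2 difference (d/d minus f/f, vertical axis) with its 95% interval for Sema3e and the 10 nearest measured genes on each side, in chromosomal order and not to distance. Sema3e at 1.56 is the only filled point, Sema3a at 0.64 lies next highest, and Sema3c at -0.05 lies near 0.

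Genes that act with or below the receptors did not pass. Of 32 measured cytoplasmic effectors, such as collapsin response mediators, 12 were higher and 20 lower, with a median of -0.03. By limma 0 passed, with 7 (21.9%) at an unadjusted p under 0.05, against 12.2% of all genes and 16.2% of those above 2.69. The smallest p belonged to Limk2, a kinase of the actin regulator cofilin, at 0.40, Rras2, a small GTPase, at 0.38 and Micall1, a MICAL-like protein, at -0.55 (adjusted p of 0.132, 0.173 and 0.246). Of 22 co-receptors, other semaphorin receptors and other neuropilin ligands, 5 were higher and 17 lower, with a median of -0.23. By limma 0 passed, with 11 (50%) at an unadjusted p under 0.05, against the same 12.2% and 16.2%. Gpc3, a glypican, and Cspg4, a proteoglycan of pericytes, stood at -0.58 each (adjusted p of 0.0700 and 0.0936).

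Of 35 measured genes in the other axon guidance families, 1 passed, against 1.14% of all genes. Efnb2, an ephrin of arterial endothelium and other tissues, rose from 8.19 ± 0.12 to 8.90 ± 0.19 (SD, n = 3; difference 0.70 ± 0.12 SE; limma adjusted p = 0.0452). With the mean of all its probe sets the difference was 0.41 and did not pass, and in fits with 1 array left out it was called 1 of 6 times. Robo1, a Slit receptor, stood at 0.82, Robo4, the endothelial member of that family, at -0.49 and Ntn1, a netrin, at -0.70 (adjusted p of 0.0628, 0.0865 and 0.141). In these families 14 genes were higher and 21 lower, with a median of -0.07. An unadjusted p under 0.05 was reached by 12 (34.3%), against 12.2% of all genes and 16.2% of those above 2.69.

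For the remaining cell types, all 9 stromal, all 7 smooth muscle and all 6 fat cell markers measured were lower on the mean. Among them 1, Thy1, fell (-1.06, limma adjusted p = 0.0155), against 1.14% of all genes called. Summed stromal intensity was 18200 to 19861 in f/f, against 14797 to 17250 in d/d, and that of smooth muscle was 5780 to 6677, against 4706 to 6280. Summed fat cell intensity was 591 to 924 in f/f, against 196 to 482 in d/d. That of cycling cell genes was 389 to 757 in f/f, against 306 to 1016 in d/d, with d/d 1 the lowest of all arrays. All 7 measured cycling cell genes were higher on the mean, and 0 passed. Leukocyte genes summed to 417 to 425 in f/f, against 382 to 419 in d/d. By gene, however, 4 of the 7 measured were higher and 3 lower, and 0 passed. Cd68 had the smallest p of the leukocyte list, with a difference of 0.46 (limma adjusted p = 0.0544). A single marker each of the fat and leukocyte lists lay below 2.69 on all arrays, and none of the stromal, smooth muscle and cycling lists did. The part of these cells in the members' values was not tested. The d/d arrays did not differ much in how many members fell inside the f/f range, at 14 of 30 for d/d 1, 13 for d/d 2 and 11 for d/d 3, beside 48.1%, 40.3% and 43.7% of all genes.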

How the data were processed

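The authors' deposited intensities, 1 per probe set and array, are linear values, and the submitters' processing notes name RMA without a version. RMA brings arrays to a shared distribution and compresses differences near background. Each array used 500 ng of RNA per the labels. The number of arrays limits precision. The fit was planned on log2 values, so log2 was taken here with no added constant. Symbols came from the platform annotation: 31562 probe sets had 1 symbol, 830 several and 9028 none.

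The genotype difference was fitted by limma (version 3.58.1, R 4.3.3; lmFit, then eBayes; 2-sided; no covariate) over all 16813 genes, and over all 41420 probe sets for single probe sets. Benjamini-Hochberg adjustment ran over each whole table, with a threshold of 0.05. The steps were tested on simulated data. Every measured member is described, as are the genes past the threshold of each other list and up to 3 more of smallest p. Members and lists were chosen with earlier results of these data known. Pclo, Cacna2d1, Hgf, Speer3, Cd36 and Itgb1 were named after their values were seen. Alternatives were a block for replicate number, a trend in the variance with robust fitting, weights on arrays, a second quantile normalization, median centring, filters on dim or _x_at probe sets, arrays left out, the mean of all probe sets, and other thresholds. Sequences are from RefSeq.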

Additional observations from a re-analysis of the deposited data

How the results depend on the processing

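The Sema3e difference kept its sign in every alternative run and ran from 1.33 to 1.73 with 1 array left out, with 1.18 without both arrays numbered 1 and 1.25 by the mean of its probe sets. It was called in 1 of these 6 fits, the one without d/d 1. It passed under the trend, weighting, normalization, centring, filter and probe set mean alternatives, and failed by probe set 1425906_a_at, at 0.40. Besides it, 0 other members passed in the fit reported. The members past the threshold numbered 2 with the variance trend, 2 with array weights (Sema3a joining in both), 3 without both arrays numbered 1, 3 at an adjusted p under 0.10, 9 at an unadjusted p under 0.05, and 0 to 4 with 1 array left out. The signalling genes past it, 0 in the fit reported, numbered 2 with array weights, 1 without both arrays numbered 1, 3 at 0.10, 18 unadjusted and 0 to 5 with 1 array left out. Other axon guidance genes, 1 in the fit reported, numbered 2, 3, 3, 3 and 12 under the trend, the weights, the removal of both arrays numbered 1, the 0.10 threshold and the unadjusted one, 0 with the mean of probe sets, and 0 to 6 with 1 array left out. All genes called, 192 in the fit reported, numbered 381 with array weights, 540 without both arrays numbered 1, 403 at 0.10, 2047 unadjusted and 26 to 821 with 1 array left out. Whether replicate numbers pair the arrays is not stated by the labels. Correlations of deviations from the group means cannot decide it, because deviations within a group of 3 depend on each other. Within a number these correlations were 0.54, 0.02 and 0.31. Among these same-numbered pairs only the arrays numbered 1 correlated best with each other. Arrays f/f 3 and d/d 2, of different numbers, also correlated best with each other, at 0.40. With the replicate block 4 members passed (Sema3e, Sema3a, Sema3g and Sema7a), with 3 signalling genes, 4 other guidance genes and 457 genes in all. Signs turned for 8 members, each with a small difference and none past the threshold. Sema3f was -0.30 without _x_at probe sets and -0.12 by the mean of probe sets, Plxna4 0.0098 and Sema6a 0.016 by that mean, and Sema4g 0.018 without both arrays numbered 1. With 1 array left out Plxna1 ran from -0.049 to 0.21, Plxna4 from -0.092 to 0.054, Sema3f from -0.10 to 0.17, Sema4c from -0.024 to 0.090, Sema4f from -0.21 to 0.12, Sema4g from -0.16 to 0.028, Sema5b from -0.14 to 0.11 and Sema6a from -0.17 to 0.051. The causes were not tested. Low signal limits 23 of the 74 probe sets, which were dim in both genotypes.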
